A study of Mus musculus with 6 samples.

Results

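CC chemokines are small secreted proteins that guide leukocytes, and the transcripts of 10 of them (Ccl1, Ccl2, Ccl3, Ccl4, Ccl5, Ccl6, Ccl7, Ccl9, Ccl17 and Ccl22) were examined in mouse T cells that had been cultured together with ovarian cancer cells. The members were the genes carrying these names in a deposited table of 54532 genes, and all 10 names were found. RNA sequencing was done on T cells from the spleens of C57BL/6 mice aged 6 to 8 weeks, isolated with a pan T cell kit. The T cells of every library received IL-2 at 10 ng/mL and 72 h of pre-activation with beads carrying anti-CD3 and anti-CD28, and then shared a culture with ID8, an ovarian cancer line of the mouse. In the cisplatin group (3 libraries) the ID8 cells had been pretreated with 40 µM cisplatin, a platinum drug that crosslinks DNA. In the control group (3 libraries, labelled WT) the ID8 cells had received PBS. The drug was given to the tumour cells beforehand, so the comparison is of T-cell libraries made after contact with drug-treated or untreated tumour cells. These libraries also held transcripts that mark ID8 cells, B cells and myeloid cells, in amounts that differed between the groups, as given below. A difference between the groups is therefore not by itself a change within T cells. The sources used here do not say whether the libraries of a group came from separate mice or cultures, so p-values measure the spread between these libraries, which may be technical. Whether ID8 cells were removed before RNA was extracted is not given in the sources used here either.

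Chemokines bind receptors on leukocytes and set up gradients along which the cells migrate, and the CC class is named for a pair of adjacent cysteines near the start of the mature protein. Most receptors accept several ligands. Ccr1 accepts Ccl3 and Ccl5 among others, and Ccl6 and Ccl9 are rodent ligands of it. Ccr2 is the receptor of Ccl2 and Ccl7 and draws monocytes from blood, Ccr4 is that of Ccl17 and Ccl22 and is carried by many regulatory T cells, and Ccr8 is that of Ccl1. Activated and memory T cells themselves release Ccl3, Ccl4 and Ccl5, whereas Ccl2, Ccl6, Ccl7, Ccl9, Ccl17 and Ccl22 are best known as products of macrophages, dendritic cells and stromal or tumour cells.

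The adjacent cysteines can be read in the transcripts. The 3 pairs of neighbouring genes on which the results turn are given as 54 coding bases, 5′ to 3′ on the gene's own strand, from the transcripts of GENCODE M21 (GRCm38), with the codons of the paired cysteines in capitals. These codons lay in exon 2 of 3 in Ccl2, Ccl3, Ccl4 and Ccl7, and in exon 3 of 4 in Ccl6 and Ccl9.
Ccl6: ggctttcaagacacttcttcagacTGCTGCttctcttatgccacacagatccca
Ccl9: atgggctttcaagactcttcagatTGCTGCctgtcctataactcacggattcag
Ccl3: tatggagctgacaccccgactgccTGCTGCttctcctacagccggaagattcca
Ccl4: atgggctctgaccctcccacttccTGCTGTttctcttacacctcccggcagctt
Ccl2: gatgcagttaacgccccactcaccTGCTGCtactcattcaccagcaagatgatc
Ccl7: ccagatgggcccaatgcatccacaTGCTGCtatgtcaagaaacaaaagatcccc
The capitals stand at chr11:83589386-83589391 (minus strand) in Ccl6 and at chr11:83575926-83575931 (minus strand) in Ccl9. In the other 2 pairs they stand at chr11:83648652-83648657 (minus strand) in Ccl3, chr11:83663482-83663487 (plus strand) in Ccl4, chr11:82036506-82036511 (plus strand) in Ccl2 and chr11:82046538-82046543 (plus strand) in Ccl7. Each of the 10 members carried exactly 1 such pair of cysteine codons. Across the 45 pairs of members, the aligned coding sequences were 38.5% to 68.1% identical with gaps counted as mismatches (median 49.4%), and on this measure Ccl3 and Ccl4 were the most alike, at 68.1%, and Ccl6 and Ccl9 next, at 64.6%. Over aligned bases alone the order was another, with Ccl1 and Ccl2 highest at 76.7%. The longest stretch shared base for base by the transcripts of any 2 members was 25 bases, between Ccl6 and Ccl9. No run of 50 bases in 9 of the 10 transcripts recurred in another gene, and in Ccl9 59 of 2957 such runs did, so reads of the members could be told from each other, while a small part of the Ccl9 transcript could not be told from other genes.

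With cisplatin-pretreated tumour cells, T-cell libraries held more CC chemokine transcript than the controls, and the rise was shared unevenly among the members. Expression is given as FPKM, the reads of a gene divided by its length and by a library factor that stands for depth, so that levels of different genes can be compared. The members summed to 216 to 221 FPKM in the cisplatin libraries and to 100 to 115 FPKM in the controls, and the groups did not overlap. Of the 10 members, 9 were tested, because Ccl1 had no read, and the lowest mean of any tested member in either group was 0.968 FPKM (Ccl17). By limma on log2(FPKM + 0.1), with Benjamini-Hochberg adjustment over the 15874 genes tested, 7 members were upregulated at an adjusted p under 0.05 (Ccl3, Ccl4, Ccl5, Ccl6, Ccl7, Ccl9 and Ccl22), where 27.5% of all tested genes were. In the other direction 1 member was downregulated (Ccl2), where 29.0% of all genes were, and Ccl17 did not pass. Together 8 members passed, and 56.5% of all genes did so in either direction. The study's own standard adds a change of at least 2-fold, which 5 members passed upwards (Ccl3, Ccl4, Ccl6, Ccl7 and Ccl9), beside 4.11% of all genes, and 0 passed downwards, beside 12.8%. The 3 cisplatin libraries lay above the 3 controls for 7 members, beside 31.9% of all genes, and below them for 1, beside 32.3%, and 64.2% of all genes were apart in either direction. The 9 tested members had a median log2 fold change of 1.07, and all genes one of 0.028. In bulk libraries like these, fewer cells of a type and less RNA per cell cannot be told apart.

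**Figure D1:**
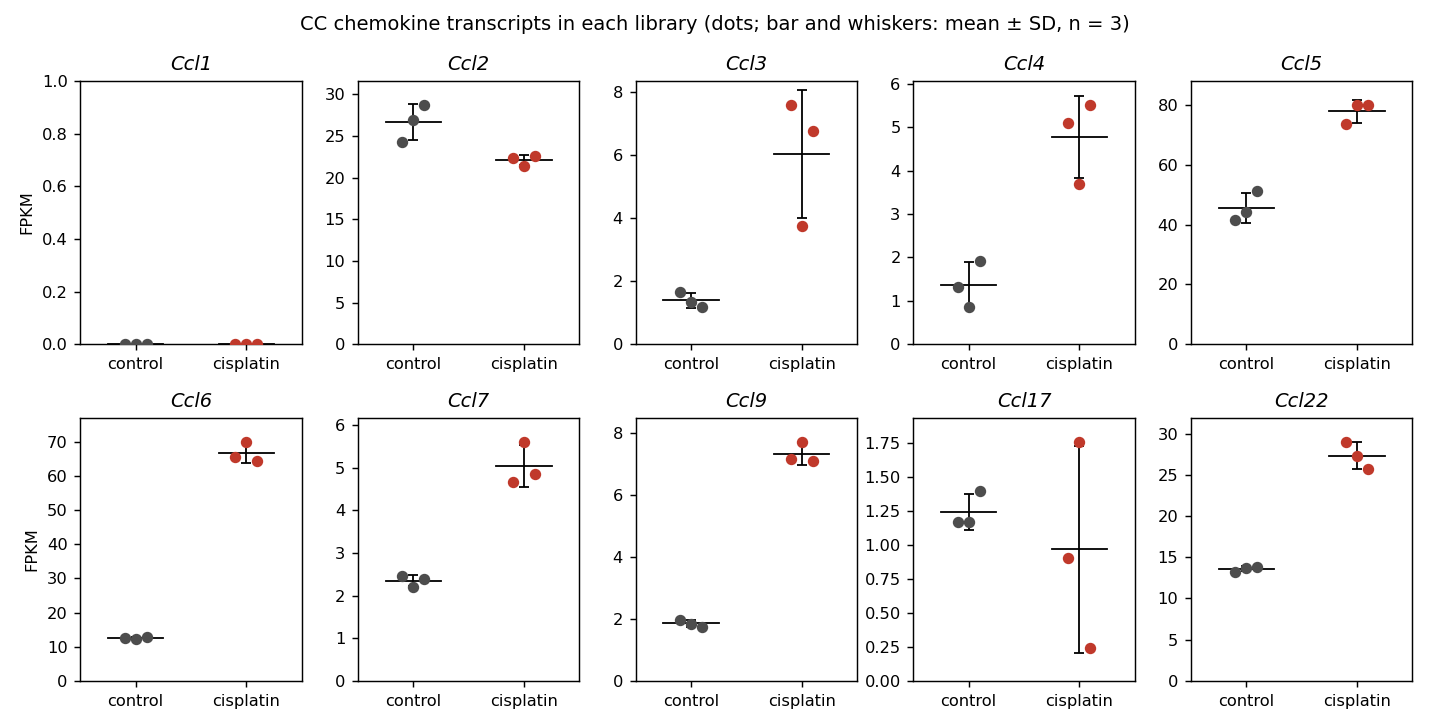
FPKM of each CC chemokine (vertical axis, linear and starting at 0, with its own range in each panel) in the 3 control and 3 cisplatin libraries, shown as dots with the mean and SD. The cisplatin dots sit above all control dots for Ccl3, Ccl4, Ccl5, Ccl6, Ccl7, Ccl9 and Ccl22, below them for Ccl2, and on both sides for Ccl17, while Ccl1 is 0 throughout.

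Ccl6 and Ccl9, the rodent ligands of Ccr1, are produced mainly by myeloid cells and stand side by side on chromosome 11, with 9245 bp between them. Ccl6 (chr11:83587882-83593087, minus strand) measured 65.6, 70.0 and 64.4 FPKM in the cisplatin libraries and 12.7, 12.3 and 13.0 FPKM in the controls. The lowest cisplatin library stood far above the highest control, and within each group the libraries were close to each other. Ccl6 was upregulated by 2.39 on the log2 scale (SE 0.04, limma adjusted p = 1.18e-07, n = 3 libraries per group), the largest change among the members. Ccl9 (chr11:83572919-83578636, minus strand) measured 7.15, 7.73 and 7.09 FPKM with cisplatin and 1.98, 1.84 and 1.76 FPKM in the controls. It was upregulated by 1.92 (SE 0.08, limma adjusted p = 2.48e-06), again with no overlap between the groups. The change was not quite in step in the 2 genes. The ratio of Ccl6 to Ccl9 was 9.10 ± 0.0632 (SD, n = 3) with cisplatin and 6.83 ± 0.514 in the controls, and the groups did not overlap (two-sided exact permutation p = 0.1, the smallest that 3 libraries against 3 can give). A long RNA gene on the opposite strand, E230016K23Rik, overlaps Ccl6, and it reached at most 0.301 FPKM in any library, well under the level of Ccl6.

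The upstream sequences of the 2 genes are shown because both genes were upregulated and are neighbours. Shared regulation was not tested. Each is the 250 bases before the annotated start, on the minus strand of GRCm38.p6 as RefSeq gives it, at chr11:83593088-83593337 for Ccl6 and chr11:83578637-83578886 for Ccl9. Capitals mark stretches of 12 or more bases found in both.
Ccl6: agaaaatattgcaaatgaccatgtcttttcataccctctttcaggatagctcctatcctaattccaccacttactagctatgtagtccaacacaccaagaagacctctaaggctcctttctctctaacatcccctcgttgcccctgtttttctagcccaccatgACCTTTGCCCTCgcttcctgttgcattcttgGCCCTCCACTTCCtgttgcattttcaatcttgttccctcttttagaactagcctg
Ccl9: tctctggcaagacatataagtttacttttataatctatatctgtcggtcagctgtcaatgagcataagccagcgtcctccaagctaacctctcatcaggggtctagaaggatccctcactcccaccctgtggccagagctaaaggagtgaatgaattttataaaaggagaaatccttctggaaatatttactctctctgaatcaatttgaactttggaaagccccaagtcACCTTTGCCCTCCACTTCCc
The longest stretch in common was 13 bases, GCCCTCCACTTCC, which is the second stretch of capitals in Ccl6 and the end of the stretch in Ccl9. RefSeq windows from 250 bases before to 50 after the start were at hand for 6 members (Ccl1, Ccl3, Ccl6, Ccl9, Ccl17 and Ccl22), and the other 14 pairs among them shared at most 10 bases. Letters of some binding motifs were looked for in the same 6 windows. An NF-κB motif, GGG and CC with 5 free bases between them, searched on both strands, was present in 3 of the 6 (Ccl1, Ccl9 and Ccl22), and 50.8% of 32851 promoters of that length held it. TGANTCA, an AP-1 motif, also searched on both strands, was present in Ccl9 alone of the 6 and in 7.81% of all promoters. The STAT motif (TTC and GAA with 3 free bases between them) and the STAT6 motif (the same with 4) were each present in Ccl17 alone of the 6, and in 8.30% and 6.95% of all promoters. An IRF motif, GAAA repeated after 2 free bases and searched on both strands, was in 0 of the 6 windows and in 3.44% of all promoters, and TATAAA on the gene's strand was in Ccl9 alone and in 8.32%. These are matches of letters and do not show binding.

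Ccl3 and Ccl4, the macrophage inflammatory proteins that activated T cells release, were low in all libraries and were upregulated. Ccl3 (chr11:83647844-83649355, minus strand) measured 7.58, 3.74 and 6.77 FPKM with cisplatin and 1.65, 1.35 and 1.19 FPKM in the controls. Cisplatin replicate 2 was the lowest of its group and it still lay above every control. The change was 1.98 on the log2 scale (SE 0.27, limma adjusted p = 0.000858). Ccl4 (chr11:83662584-83664683, plus strand) measured 5.10, 3.70 and 5.52 FPKM with cisplatin and 1.31, 0.859 and 1.93 FPKM in the controls. The same cisplatin library was lowest, and the groups again did not overlap. Ccl4 was upregulated by 1.78 (SE 0.29, limma adjusted p = 0.00192). These values rest on few reads, 28 to 38 per control library for Ccl3 and 17 to 39 for Ccl4, and their errors were larger than those of Ccl6 or Ccl9. The ratio of Ccl3 to Ccl4 was 1.24 ± 0.238 with cisplatin and 1.15 ± 0.486 in the controls, and it overlapped between the groups (two-sided exact permutation p = 0.9).

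Ccl5, also known as RANTES and made in quantity by effector and memory CD8+ T cells, was the most abundant member in both groups. Ccl5 (chr11:83525778-83530518, minus strand) measured 73.6, 80.1 and 80.1 FPKM with cisplatin and 41.6, 44.2 and 51.2 FPKM in the controls. All cisplatin libraries were above all controls, and control replicate 3 was the highest of its group. Ccl5 was upregulated by 0.77 on the log2 scale (SE 0.08, limma adjusted p = 0.000214), below the 2-fold standard. This was the smallest rise among the 7 upregulated members. It was near the median log2 fold change of the 26 T cell marker genes, which was 0.60. The 10 B cell markers also had a median of 0.60, so this closeness was not particular to T cells. The median of the tested monocyte and macrophage markers was 1.30.

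The Ccr2 ligands Ccl2 and Ccl7, which recruit monocytes, went in opposite directions although their genes are neighbours on chromosome 11, 8258 bp apart. Ccl2 (chr11:82035571-82037453, plus strand), also called monocyte chemoattractant protein, measured 22.4, 21.5 and 22.6 FPKM with cisplatin and 24.3, 27.0 and 28.7 FPKM in the controls. The 3 cisplatin libraries were all below the lowest control, by a narrow margin. Ccl2 fell by 0.26 on the log2 scale (SE 0.06, limma adjusted p = 0.0114). The call was lost when the reads rebuilt from the FPKM were fitted with limma voom, where the change was -0.18 (SE 0.08, adjusted p = 0.0605). With FPKM rescaled by the rebuilt reads the change was also -0.18, and it only just passed (limma adjusted p = 0.0499). Ccl7 (chr11:82045712-82047525, plus strand) measured 4.67, 5.61 and 4.85 FPKM with cisplatin and 2.45, 2.21 and 2.40 FPKM in the controls. It was upregulated by 1.07 (SE 0.09, limma adjusted p = 0.000105), with no overlap, on 53 to 59 reads per control library. Its place past 2-fold was narrow, since the change was 0.99 without cisplatin replicate 2, 0.85 with a pseudocount of 1 and 0.47 centred on the T cell markers. The ratio of Ccl7 to Ccl2 was accordingly 0.228 ± 0.0290 with cisplatin and 0.0888 ± 0.0105 in the controls, without overlap (two-sided exact permutation p = 0.1, the smallest possible). A second gene model, Gm17268, lies on the strand opposite Ccl2, and it had no read in any library.

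The Ccr4 ligands Ccl17 and Ccl22 lie together on chromosome 8, with 58753 bp between them, and only Ccl22 passed the test. Ccl22 (chr8:94745590-94751699, plus strand), a product of dendritic cells and macrophages that attracts regulatory T cells, measured 29.0, 27.2 and 25.7 FPKM with cisplatin and 13.3, 13.7 and 13.9 FPKM in the controls. The groups were clearly apart, and the spread within each was small. Ccl22 was upregulated by 0.998 on the log2 scale (SE 0.05, limma adjusted p = 7.44e-06). The ratio of its group means was 2.01, yet the fitted log2 value lay just under 1, so it did not count as a 2-fold change. Over the alternatives the value ran from 0.41, centred on the T cell markers, to 1.09, with quantile normalization, and it passed 1 without cisplatin replicate 3, control replicate 2 or control replicate 3 (1.0039 to 1.04). Ccl17 (chr8:94810453-94812036, plus strand), the other ligand, measured 0.902, 1.76 and 0.240 FPKM with cisplatin and 1.17, 1.17 and 1.39 FPKM in the controls. Cisplatin replicate 2 was above all controls and the other two cisplatin libraries were below them, on 4 to 30 reads per library. The log2 fold change was -0.64 (SE 0.58, 95% interval -2.04 to 0.76, limma adjusted p = 0.392), an interval wide enough to include changes of over 1 in size downwards and a moderate rise. Without cisplatin replicate 3 the value was 0.028 (adjusted p = 0.947), so the sign rested on that library. A difference in Ccl17 was not detectable in these libraries, where reads were few and the cisplatin libraries disagreed (15, 30 and 4 reads).

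Ccl1 (chr11:82176657-82305690, minus strand), the ligand of Ccr8 and a cytokine gene of activated T cells, had 0 reads in all 6 libraries. At the gene length of 2369 bases in the deposited table, a floor of 3 reads corresponds to 0.0382 to 0.0422 FPKM in these libraries. A count of 0 allows levels up to about that, and higher ones if the transcript is shorter than this length. The Ccl1 transcript used for the sequence comparison held 562 runs of 50 bases, so it was much shorter. For that transcript the floor is higher than the range given. It was listed at 0 in both groups, and no fold change is given.

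**Figure D2:**
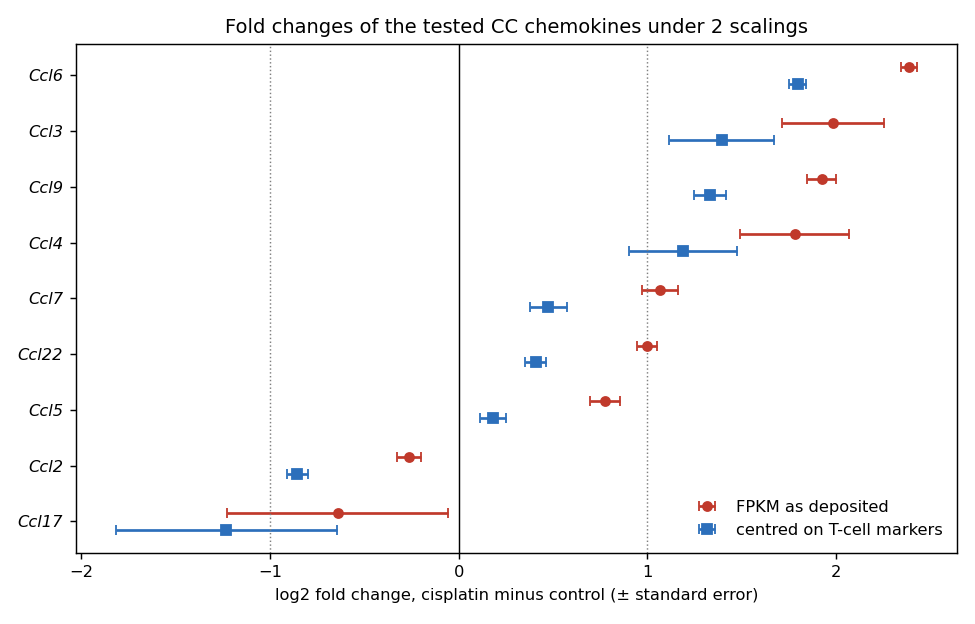
Log2 fold change (horizontal axis, cisplatin minus control, whiskers are the standard error) of the 9 tested CC chemokines, from FPKM as deposited (circles) and after centring every library on its T cell markers (squares). Dotted lines mark a 2-fold change, and Ccl6, Ccl3, Ccl9 and Ccl4 stay beyond it under both scalings.

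The make-up of the CC chemokine transcripts differed between the groups, as well as their sum. Ccl6 took 29.6% to 31.6% of the summed FPKM in the cisplatin libraries and 11.2% to 12.6% in the controls. Ccl2 took 9.69% to 10.4% with cisplatin and 24.2% to 25.8% in the controls. Ccl5 took 34.1% to 36.9% with cisplatin and 41.5% to 44.4% in the controls, so its share was lower although its level was higher. None of these shares overlapped between the groups. The share of Ccl22, at 11.8% to 13.4% with cisplatin and 12.01% to 13.2% in the controls, overlapped. The shares of a library add up to the whole, so they are not independent of each other. Their size also rests on the gene lengths by which FPKM is divided. In terms of ratios that do not depend on the scaling of a library, Ccl6 per Ccl5 was 0.856 ± 0.0461 with cisplatin and 0.279 ± 0.0252 in the controls, and Ccl6 per Ccl2 was 3.02 ± 0.218 and 0.477 ± 0.0380. Ccl5 per Ccl2 was 3.52 ± 0.222 and 1.71 ± 0.0723. Each of these 3 ratios was apart in every library (two-sided exact permutation p = 0.1, the smallest possible). In all, 7 ratios were computed, and none of them can pass a threshold of 0.05 in this design, adjusted or not.

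**Figure D3:**
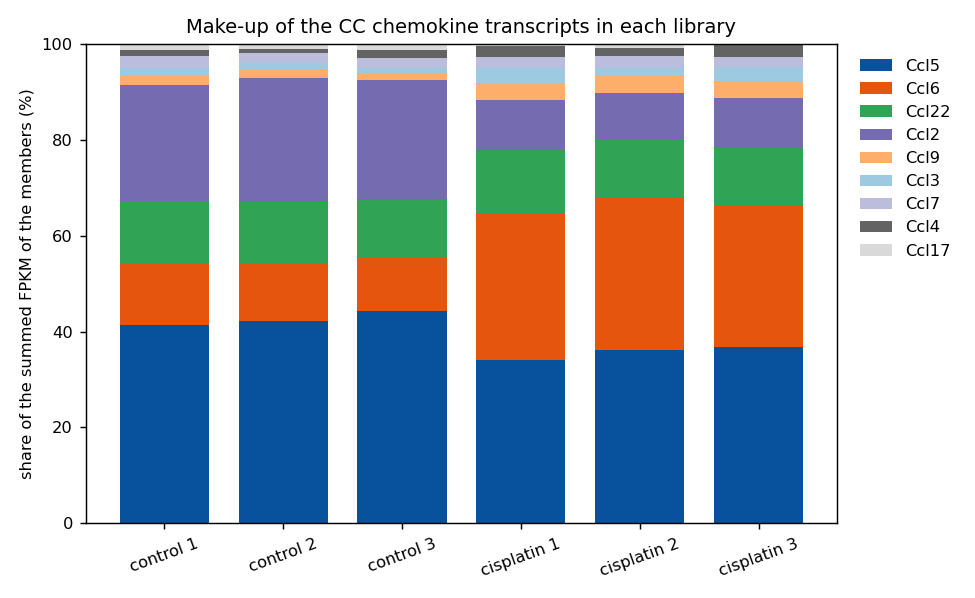
Share of each CC chemokine in the summed FPKM of the members (vertical axis, percent), with 1 stacked bar per library. Ccl6 fills 29.6% to 31.6% of the cisplatin bars and 11.2% to 12.6% of the control bars, and Ccl2 fills 9.69% to 10.4% and 24.2% to 25.8%.

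By level per length, the control libraries ranked Ccl5 first, at 45.7 ± 4.95 FPKM (SD, n = 3), then Ccl2, at 26.7 ± 2.21 FPKM, Ccl22, at 13.6 ± 0.313 FPKM, and Ccl6, at 12.7 ± 0.322 FPKM. Below these 4 stood Ccl7, at 2.35 ± 0.130 FPKM, and Ccl9, at 1.86 ± 0.114 FPKM, and each of these neighbours in the order was apart from the next in every library. Ccl3, Ccl4 and Ccl17 came next, and they did not differ beyond their spread. In the cisplatin libraries the order was Ccl5, at 78.0 ± 3.74 FPKM, then Ccl6, at 66.7 ± 2.92 FPKM, Ccl22, at 27.3 ± 1.64 FPKM, and Ccl2, at 22.1 ± 0.613 FPKM. On this measure Ccl6 moved from the fourth place to the second, and Ccl2 from the second to the fourth. The order rests on the gene lengths of the deposited table, such as 1795 bases for Ccl6 and 2325 for Ccl22. With other lengths, near neighbours such as Ccl22 and Ccl6 in the controls, or Ccl22 and Ccl2 with cisplatin, could change places. The moves named here would then differ, and this was not tested. Ccl9, Ccl3, Ccl7 and Ccl4 followed, at 7.33 to 4.77 FPKM, and neighbours among these overlapped, while Ccl17 was clearly below them.

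Transcripts that mark the cells of the co-culture also differed between the groups. Depth was similar, at 30606569 to 32169496 reads on genes per library. All 26 T cell markers were measured and all were higher with cisplatin, with a median log2 fold change of 0.60 and summed levels of 3239 to 3313 FPKM against 2049 to 2177 FPKM. Of 30 markers of ID8, epithelial and mesothelial cells, 24 were tested and 23 fell, with a median of -2.32 and summed levels of 273 to 285 FPKM against 1783 to 1859 FPKM. Keratins and mesothelin were thus present in the libraries of both groups, in unequal amounts. With the mean of the T cell markers set equal in all libraries, 7 members were still upregulated and 1 downregulated. Of these, 4 passed 2-fold upwards (Ccl3, Ccl4, Ccl6 and Ccl9). Of all 15874 genes tested, 715 were then higher and 10639 lower, with 137 and 3828 at 2-fold. The median of all genes moved to -0.56, so being lower was the common outcome under this centring. The centred log2 fold changes were 1.80 for Ccl6, 1.39 for Ccl3, 1.33 for Ccl9, 1.19 for Ccl4, 0.47 for Ccl7, 0.41 for Ccl22 and -0.85 for Ccl2. That of Ccl5 was 0.18 (limma adjusted p = 0.0474), a small part of its value as deposited. Ccl17 was at -1.23 and did not pass (adjusted p = 0.0991). The part of the unequal tumour cell transcripts in the chemokine results beyond this centring was not tested.

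Markers of other cell types, some of them known sources of these chemokines, also differed. Of 14 monocyte and macrophage markers, none was at 0 in all libraries, 12 were tested, 10 were upregulated and Cd14 was downregulated, with a median of 1.30 and summed levels of 161 to 182 FPKM against 92.9 to 98.6 FPKM. The complement gene C1qb stood at 6.28 ± 0.557 FPKM with cisplatin and 0.863 ± 0.229 FPKM in the controls, a change of 2.75, and lysozyme, Lyz2, at 89.7 ± 9.31 and 30.8 ± 1.81 FPKM, a change of 1.54. Of 9 dendritic cell markers, 5 were tested, with 4 higher and Zbtb46 lower, on summed levels of 30.6 to 34.5 FPKM against 22.9 to 23.3 FPKM, and Cd209a was at 0 in all libraries. Of 10 B cell markers 9 were higher and 1 was lower, at 3618 to 3695 FPKM against 1691 to 1780 FPKM in sum. Of 6 mast cell and basophil markers, 4 were tested, 2 were higher and 1 was lower, at 27.3 to 30.8 FPKM against 15.8 to 19.5 FPKM. Of 6 natural killer cell markers, 5 were tested and 2 were higher, at 45.1 to 50.03 FPKM against 32.3 to 34.5 FPKM. Of 8 neutrophil markers only Mpo and Elane were tested and both were higher, at 3.16 to 4.23 FPKM against 0.394 to 1.42 FPKM for the whole list. S100a8, S100a9 and Ly6g averaged under 0.5 FPKM. The filter uses the mean of all 6 libraries, so genes this low can enter it through the group where they are high. These 2 calls therefore carry little weight. Over all genes tested, 27.5% were higher and 29.0% lower. The part of these cells in the chemokine results was not tested.

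**Figure D4:**
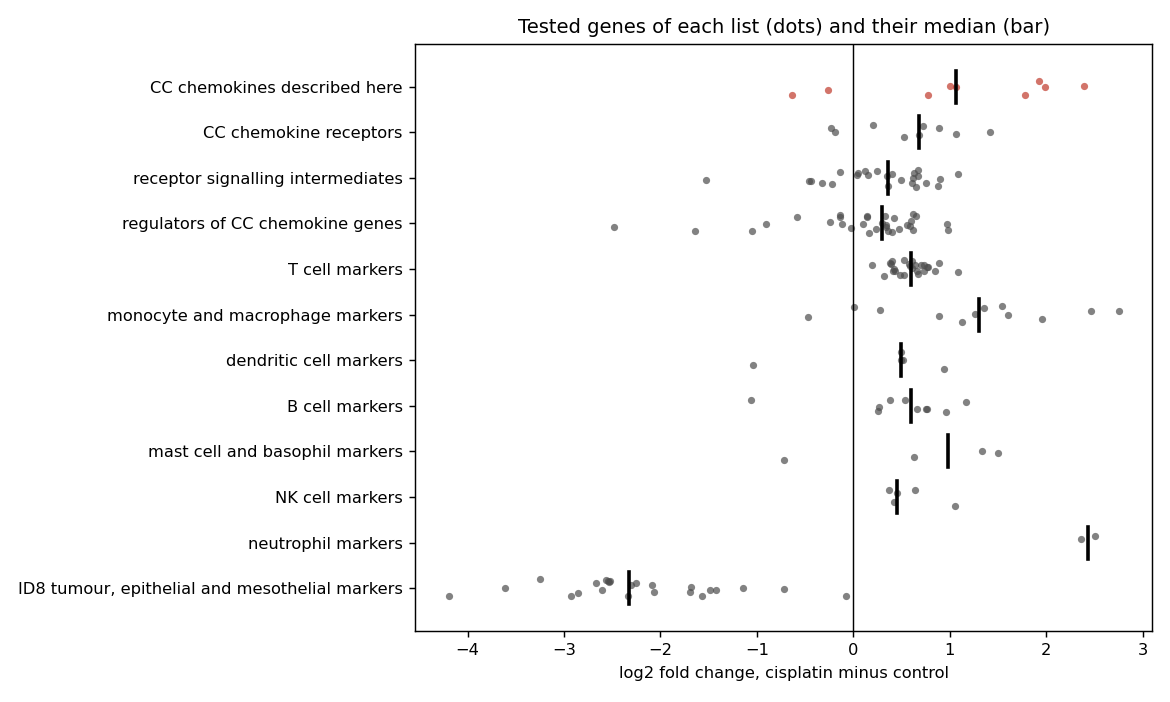
Log2 fold change (horizontal axis, cisplatin minus control) of every tested gene of each list, as dots, with the median of the list as a bar. The CC chemokines have a median of 1.07, the T cell markers 0.60, the monocyte and macrophage markers 1.30 and the ID8, epithelial and mesothelial markers -2.32.

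The receptors of the members were also higher in part. Of 13 CC chemokine receptor genes, 9 were tested, and 6 were upregulated and 0 downregulated, beside the 27.5% and 29.0% of all genes. Ccr1, which binds Ccl3, Ccl5, Ccl6, Ccl7 and Ccl9, measured 4.33, 5.32 and 4.05 FPKM with cisplatin and 1.88, 2.26 and 2.24 FPKM in the controls. It rose by 1.06 (SE 0.13, limma adjusted p = 0.00049), with no overlap. Ccr2, the receptor of Ccl2 and Ccl7, measured 3.24, 3.15 and 3.45 FPKM with cisplatin and 1.72, 1.85 and 1.59 FPKM in the controls. It rose by 0.89 (SE 0.10, adjusted p = 0.000272), again without overlap. Ccr4, the receptor of Ccl17 and Ccl22, measured 3.59, 4.25 and 4.25 FPKM with cisplatin and 2.61, 2.12 and 2.74 FPKM in the controls. Its change was 0.68 (SE 0.12, adjusted p = 0.00338).

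Ccr8, the receptor of Ccl1, did not pass, at 1.43 ± 0.0806 FPKM against 1.26 ± 0.337 FPKM (0.20, adjusted p = 0.465). Of receptors with ligands outside the 10 members, Ccr7, the lymph node homing receptor, was by far the most abundant, at 242 ± 0.902 FPKM against 169 ± 9.21 FPKM (0.52, adjusted p = 6.78e-05), and Ccr9, the gut homing receptor, changed most, at 4.36 ± 0.296 FPKM against 1.58 ± 0.0958 FPKM (1.41, adjusted p = 2.46e-05). Ccr6 rose by 0.72, and Ccrl2 and the scavenger Ackr2 did not pass. Centred on the T cell markers, 3 receptors were higher (Ccr1, Ccr2 and Ccr9) and 2 lower (Ccrl2 and Ackr2), and Ccr4, Ccr6 and Ccr7 no longer passed. Over all 15874 genes the same centring gave 715 higher and 10639 lower.

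**Figure D5:**
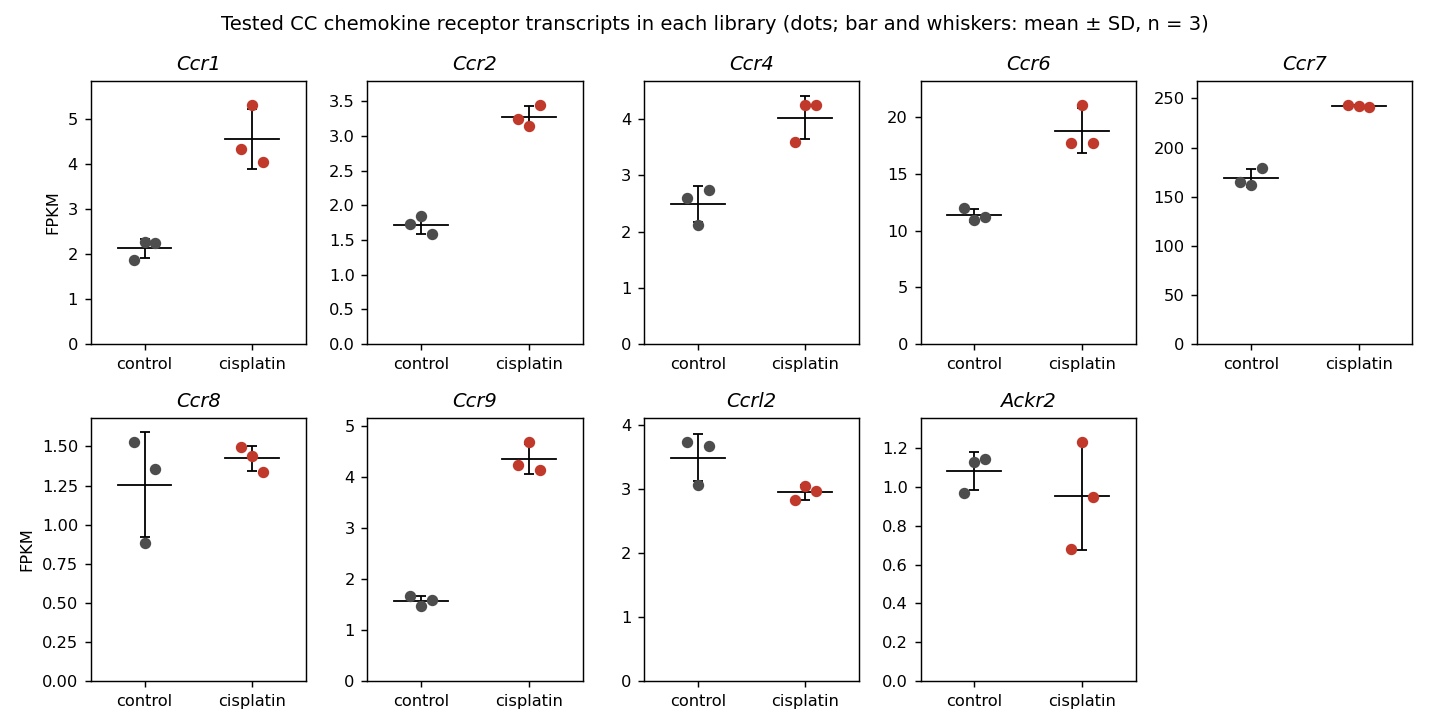
FPKM of the 9 tested CC chemokine receptor genes (vertical axis, linear and starting at 0, with its own range in each panel) in the 3 control and 3 cisplatin libraries, as dots with the mean and SD. Ccr1, Ccr2 and Ccr9 separate widely, and Ccr8 and Ackr2 overlap.

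The rest of the CC family was mostly silent. Of 13 other CC chemokine genes, 5 had no read in any library (Ccl11, Ccl19, Ccl21a, Ccl21b and Ccl26), and 3 reached a mean of 0.5 FPKM and were tested. Ccl24, an eosinophil attractant made by macrophages, measured 3.27, 3.26 and 2.76 FPKM with cisplatin and 0.952, 0.773 and 0.906 FPKM in the controls, and was upregulated by 1.71 (SE 0.13, limma adjusted p = 5.78e-05). Ccl27a, best known from skin epithelium, measured 0.767, 0.901 and 1.40 FPKM with cisplatin and 3.05, 2.05 and 2.25 FPKM in the controls, and fell by 1.20 on the log2 scale (SE 0.25, adjusted p = 0.00607). Ccl25 did not pass, at 1.68 ± 0.114 FPKM against 1.74 ± 0.0708 FPKM (-0.05, adjusted p = 0.74). Ccl12, a Ccr2 ligand whose gene lies near Ccl2 and Ccl7 on chromosome 11, had 6, 10 and 2 reads with cisplatin and 0 in every control, and its level was too low for the test.

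Regulators of CC chemokine genes, mostly transcription factors with the inhibitor Nfkbia and the mRNA decay factors Zfp36, Zfp36l1 and Zfp36l2, were measured as a list of 31 genes, all tested. Of these 19 were upregulated and 9 downregulated, beside 27.5% and 29.0% of all genes. The NF-κB subunits Rel and Relb rose by 0.60 and 0.65, from 12.4 ± 0.797 to 18.8 ± 0.382 FPKM and from 14.0 ± 0.423 to 22.0 ± 0.764 FPKM, and Rela fell by 0.14. Irf4 and Batf, which work together in activated lymphocytes, rose by 0.98 and 0.97, from 15.6 ± 0.720 to 30.9 ± 0.546 FPKM and from 11.99 ± 0.696 to 23.5 ± 1.06 FPKM. The AP-1 genes Fosl2, Fos and Jun fell by 2.48, 1.64 and 0.91 on the log2 scale, and Egr1, an immediate early gene, fell by 1.05. Fosl2 went from 34.9 ± 1.90 FPKM in the controls to 6.19 ± 0.606 FPKM with cisplatin. Stat6, the mediator of IL-4 signals that induces Ccl17 and Ccl22 in myeloid cells, did not pass, at 53.1 ± 1.71 FPKM against 54.0 ± 0.227 FPKM (-0.02, limma adjusted p = 0.555). Centred on the T cell markers, 2 of the 31 were higher (Irf4 and Batf) and 23 were lower, among them the 9 that were lower as deposited. Most genes went the same way, since 715 of all 15874 genes were higher and 10639 lower under this centring. The centring moves every gene by the same amount.

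The genes whose pattern over the 6 libraries was most like that of each member were sought among 7665 protein-coding genes averaging 5 FPKM or more, by the root-mean-square difference of centred log2(FPKM + 0.1). This measure is a description, and with 6 libraries in 2 groups it mostly reflects the size of the change. Ccl6 was nearest to Gpnmb, a glycoprotein of macrophages and dendritic cells, at a difference of 0.12, with Gpnmb at 20.1 FPKM with cisplatin and 3.26 FPKM in the controls. Ccl9 was nearest to Myb, a transcription factor of blood progenitors and lymphocytes, at 0.13, and Myb was also the nearest to Ccl4, at 0.31, and second for Ccl3, at 0.34, and for Ccl6, at 0.34. Ccl3 itself was nearest to Mcpt1, a mast cell protease gene, at 0.29. Ccl5 was nearest to Asb2, at 0.04, and then to Klrk1, at 0.06, which encodes an activating receptor of cytotoxic lymphocytes. Ccl22 was nearest to Ptpn6, a tyrosine phosphatase of blood cells, at 0.05, and to Tlr9, at 0.05, and Ccl7 to Glipr1, at 0.02, and to Evi2a, at 0.05. Ccl2 was nearest to Spata6, at 0.02, and to Tmem35b, at 0.03. No gene came near the uneven pattern of Ccl17, whose closest, Gm17622, was at 0.51.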

How the data were processed

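Poly-A RNA of T cells extracted with TRIzol was sequenced in 6 libraries. The deposited table gives FPKM for each gene and library, computed by the authors. Per the labels, processing used fastp, HISAT2 2.0.5 and featureCounts 1.5.0-p3 with mm10, whereas the study's methods name LifeScope for alignment and counting and DESeq2 for the authors' own tests, and these accounts were not reconciled here. Whether strand was counted, and how reads matching several genes were treated, is not given in the sources used here. Gene coordinates equalled those of GENCODE M21 (GRCm38) for 53499 of the 54409 genes in both. The library factor in FPKM was 1.04 times the reads on genes in the cisplatin group and 0.980 times in the controls, on average. Groups and replicate numbers came from the sample titles, and 0 columns of the table were left unmapped.

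Whole reads were rebuilt from FPKM and gene length (100% of values within 0.1 of a whole read). Replicates differed by more than sampling noise (chi-square per degree of freedom 5.35 to 6.44), so none was counted as a duplicate. Tests were run with limma's lmFit and trended eBayes (limma 3.58.1, R 4.3.3) on log2(FPKM + 0.1), for genes averaging 0.5 FPKM or more. Fold changes are on that scale, which understates changes of low genes. Ranges, shares, exact permutation tests and sequence searches used python 3.11.15, numpy 2.4.6, pandas 2.3.3, scipy 1.17.1 and biopython 1.88, and figures matplotlib 3.10.9. The steps were tested on simulated data for this comparison (15883 genes tested), where 97.0% of 67 genes changed 2-fold, 68.7% of 67 changed 1.5-fold and 100% of 66 changed 4-fold were called, with 15 unchanged genes called. Only these few genes were changed, up or down at random, with the same spread set for all genes. In the real comparison 56.5% of genes passed, so the simulation checks the steps and does not give the error rates of the real calls. All 10 members are described whatever their values. Other genes named are from lists of receptors, other CC chemokines, signalling intermediates, regulators and cell type markers, or are the 2 nearest in pattern to a member. The members and lists were chosen with earlier results of these data known. The lists were matched by symbol, 2 of them (Ccn1 and Ccn2) through older symbols, and Ccl21c was not used here. Some genes of the lists are left unreported. Alternatives were other pseudocounts, filters, scalings between libraries, limma voom on the rebuilt reads, protein-coding genes alone, fits lacking 1 library, and a block on the replicate number. The 95% interval comes from the limma fit, and so from the spread between libraries. Floors from reads cover counting error only.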

Additional observations from a re-analysis of the deposited data

How the results depend on the processing

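The 7 upregulated members kept their direction and an adjusted p under 0.05 under every alternative in which they were tested. With a mean of at least 5 FPKM only 4 members were tested, and 3 were higher, 1 of them at 2-fold. Under the other alternatives 4 to 6 members passed 2-fold, depending on Ccl7 and Ccl22. Limma voom on the rebuilt reads gave 0 lower members, since Ccl2 no longer passed. Ccl17 did not pass under any alternative, and with 1 library left out it ranged from -1.20 to 0.028, the positive value without cisplatin replicate 3. Over all genes, same-numbered libraries showed no clear shared deviation from their group means (correlations 0.0229, -0.0630 and -0.0207). With 3 libraries per group this cannot settle whether the replicates were paired. With the replicate number as a block 7 members were higher and 1 lower, and 4147 and 4417 of all genes.

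Centring on the T cell markers gave 3 receptors higher and 2 lower, 2 other CC chemokines lower, 2 signalling intermediates higher and 15 lower, and 2 regulators higher and 23 lower. Over all genes it gave 715 higher and 10639 lower (137 and 3828 at 2-fold), so that 93.7% of calls were lower, against 51.4% as deposited and 39.5% with quantile normalization. At 2-fold the lower share was 75.7% as deposited, 96.5% centred, 64.6% with quantile normalization and 87.5% among protein-coding genes alone. The median log2 fold change of all genes was 0.028 as deposited, -0.56 centred, 0.16 with quantile normalization and 0.11 with FPKM rescaled by the rebuilt reads. With a mean of at least 5 FPKM, 2 receptors and 0 other CC chemokines were higher and 0 other CC chemokines lower, and over all genes 2893 were lower, 242 higher and 903 lower at 2-fold. With every gene above 0 tested, 2 other CC chemokines were higher, the second being Ccl12 (adjusted p = 0.0162). Genes higher at 2-fold numbered 311 with a pseudocount of 1, 1128 with voom and 255 among protein-coding genes alone, against 653. Leaving out 1 library gave 0 to 1 lower receptors, the 1 being Ccrl2 without control replicate 2 (-0.32, adjusted p = 0.0241). The cause of these shifts was not tested. Values under about 50 reads, those of Ccl3 and Ccl4 in the controls and of Ccl17 in both groups, are the least precise. The depth limits what can be said of Ccl1 and Ccl17, and for Ccl17 the spread between the cisplatin libraries does so too.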

Other observations

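The signalling machinery downstream of the CC chemokine receptors was measured as a list of 25 genes, all tested, of which 16 were upregulated and 4 downregulated (beside 27.5% and 29.0% of all genes), with a median log2 fold change of 0.36. Arrb1, an arrestin that ends receptor signalling, fell from 28.6 ± 0.832 FPKM in the controls to 9.82 ± 0.0640 FPKM with cisplatin, by 1.53 on the log2 scale (limma adjusted p = 3.02e-07), and Arrb2, the other arrestin, rose by 0.35 (adjusted p = 0.000268). The receptor kinases Grk2, Grk3, Grk5 and Grk6 all rose on FPKM as deposited, and Grk5 changed most, from 2.93 ± 0.274 to 6.36 ± 0.758 FPKM (1.09). Dock2 and Rac2, which drive the movement of lymphocytes, rose by 0.67 and 0.49, and Rac1 and the G protein subunit Gnb1, both found in all cell types, fell by 0.44 and 0.45. Gnai2, the G protein through which most chemokine receptors signal, did not pass, at 126 ± 2.58 FPKM against 123 ± 3.07 FPKM (0.04, adjusted p = 0.359). Centred on the T cell markers, Grk5 and Vav1 were higher and 15 of the 25 were lower, beside 715 and 10639 of all 15874 genes. These 15 include the 4 that were lower as deposited (Arrb1, Gnb1, Plcb3 and Rac1). The centring moves every gene by the same amount.

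The 10 CC chemokine genes described here stand in 3 groups on the chromosomes. Ccl2 and Ccl7 lie 8258 bp apart on chromosome 11, Ccl1 follows 129131 bp further, and after a gap of 1220087 bp come Ccl5, Ccl9, Ccl6, Ccl3 and Ccl4, with 9245 to 54756 bp between neighbours. On chromosome 8 stand Ccl22 and Ccl17. In the chromosome 11 group from Ccl5 to Ccl4 all 5 members were upregulated, where 27.5% of all tested genes were. The rise of Ccl5 was small when centred on the T cell markers, at 0.18. Ccl7 was upregulated and its neighbour Ccl2 downregulated, where 29.0% of all tested genes were downregulated. On chromosome 8, Ccl22 was upregulated and Ccl17 did not pass. Whether position bears on these changes was not tested.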
